A study of Homo sapiens with 40 samples.

Results

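The transcripts described here are 10 messenger RNAs known from other cells as targets of QKI (quaking): FOXO1, CTNNB1, CDKN1B, MBP, NUMB, ADD3, MACF1, SIRT2, ERBIN and CD44. They were chosen by symbol, by a rule that uses no measured value, though earlier results of these data were known. They are 10 of the 62754 genes in each of the 3 count tables. The transcripts were followed in read counts per gene from 40 libraries, 10 groups of 4, labelled with the names of human lines of T-cell leukaemia (T-ALL). This leukaemia arises from immature T cells. In Jurkat, siRNA to QKI was set against siRNA with no target (NTC), both delivered by electroporation. In cells labelled HPB-ALL, shRNA to QKI was set against NTC shRNA, both delivered by virus. The libraries of this knockdown did not carry the markers of that line, as given below. The 6 groups left are lines without treatment: ALL-SIL, DND-41, HPB-ALL, KARPAS-45, LOUCY and TALL-1. Per the labels, KARPAS-45 and HPB-ALL, with the knockdown labelled HPB-ALL, grew in 20% serum and the others in 10%. The RNA of Jurkat is total RNA and that of the rest polyadenylated. The study asked what loss of QKI does to RNA in these cells and how the lines compare by their amount of QKI. For each knockdown the labels name 1 siRNA or shRNA reagent against QKI, and the control columns of Jurkat are headed shNTC although the samples are labelled as siRNA controls. The knockdown replicates are described as biological. Nothing says this of the untreated lines, so p-values over the lines reflect a spread that could be technical.

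QKI belongs to the STAR family of proteins that bind RNA. It binds a short sequence built on ACUAAC or ACUAAU with a second, shorter UAAC or UAAU nearby, and, depending on the isoform and the site, it changes the stability, translation or export of the bound RNA or the choice of its exons. The myelin transcript MBP is a classical target in the glial cells that make myelin, and the messenger RNAs of the cell-cycle inhibitor CDKN1B, the transcription factor FOXO1, beta-catenin (CTNNB1) and the deacetylase SIRT2 have been described as bound in their 3′ untranslated regions. NUMB, ADD3, MACF1, ERBIN and CD44 are better known for exons whose use depends on QKI. Totals per gene do not show exon use, so for these 5 only the amount of RNA is described.

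The 5 transcripts described as bound in the 3′ untranslated region each held at least 1 core motif there, in the reference sequence of GENCODE 29 on GRCh38. These stretches are shown because they are the candidate contact points in the transcripts whose amounts are compared next. Capitals mark the core (ACTAAC or ACTAAT, in DNA letters) and, where there is one within 20 bases outside the core, the short second motif (TAAC or TAAT). The number after each name is the position of the core, counted from 1 at the first base of the untranslated region.
FOXO1 at 921: tattcTAACtggattagtACTAATtttat
FOXO1 at 983: tctgACTAATcttaaatcattgTAATtagt
FOXO1 at 2944: gagttctTAATttataACTAATtttaaaa
CTNNB1 at 408: cctgacacACTAACcaagctga
CTNNB1 at 766: tgtagaacACTAATtcaTAATcactctaa
CDKN1B at 1103: aaaattatACTAACttatttat
MBP at 991: agcACTAACcctccctgagaagaTAACcgg
SIRT2 at 588: caaaaacaACTAACaatcc

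The FOXO1 sites lie on the minus strand at chr13:40558118-40558146, chr13:40558041-40558070 and chr13:40556093-40556121, and the CTNNB1 sites on the plus strand at chr3:41239742-41239763 and chr3:41240100-41240128. The CDKN1B site is at chr12:12722122-12722143 (plus), the MBP site at chr18:76979410-76979439 (minus) and the SIRT2 site at chr19:38878557-38878575 (minus). FOXO1 held the most cores, 4 in 3382 bases, 3 of them with a second motif; per kilobase it held 1.18, fewer than CTNNB1 (1.80) and SIRT2 (1.67). Its core at 2157, which had no second motif, is not shown above. Of the untranslated regions of similar length (80% to 125% of its own) 66.6% held at least 1 core and 4.97% held as many as 4. A core with a second motif stood in 31.9% of them. CTNNB1 held 2 cores in 1111 bases, 1 with a second motif. Of regions of similar length 28.98% held at least 1 core, 5.56% as many as 2 and 11.9% a core with a second motif. A single core stood in CDKN1B, MBP and SIRT2, and such a core stands in 34.5%, 39.5% and 15.4% of regions of their lengths. A core with a second motif, as in MBP, stands in 17.5% of regions of the length of MBP. Of the 5 transcripts known for exon choice, NUMB had 1 core, at position 102, and ADD3, MACF1, ERBIN and CD44 had none in this region of the transcript examined. Among all 19109 untranslated regions examined on the transcript strand, 30.6% held a core and 14.5% a core with a second motif. A match is a stretch of letters and does not show binding.

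**Figure D1:**
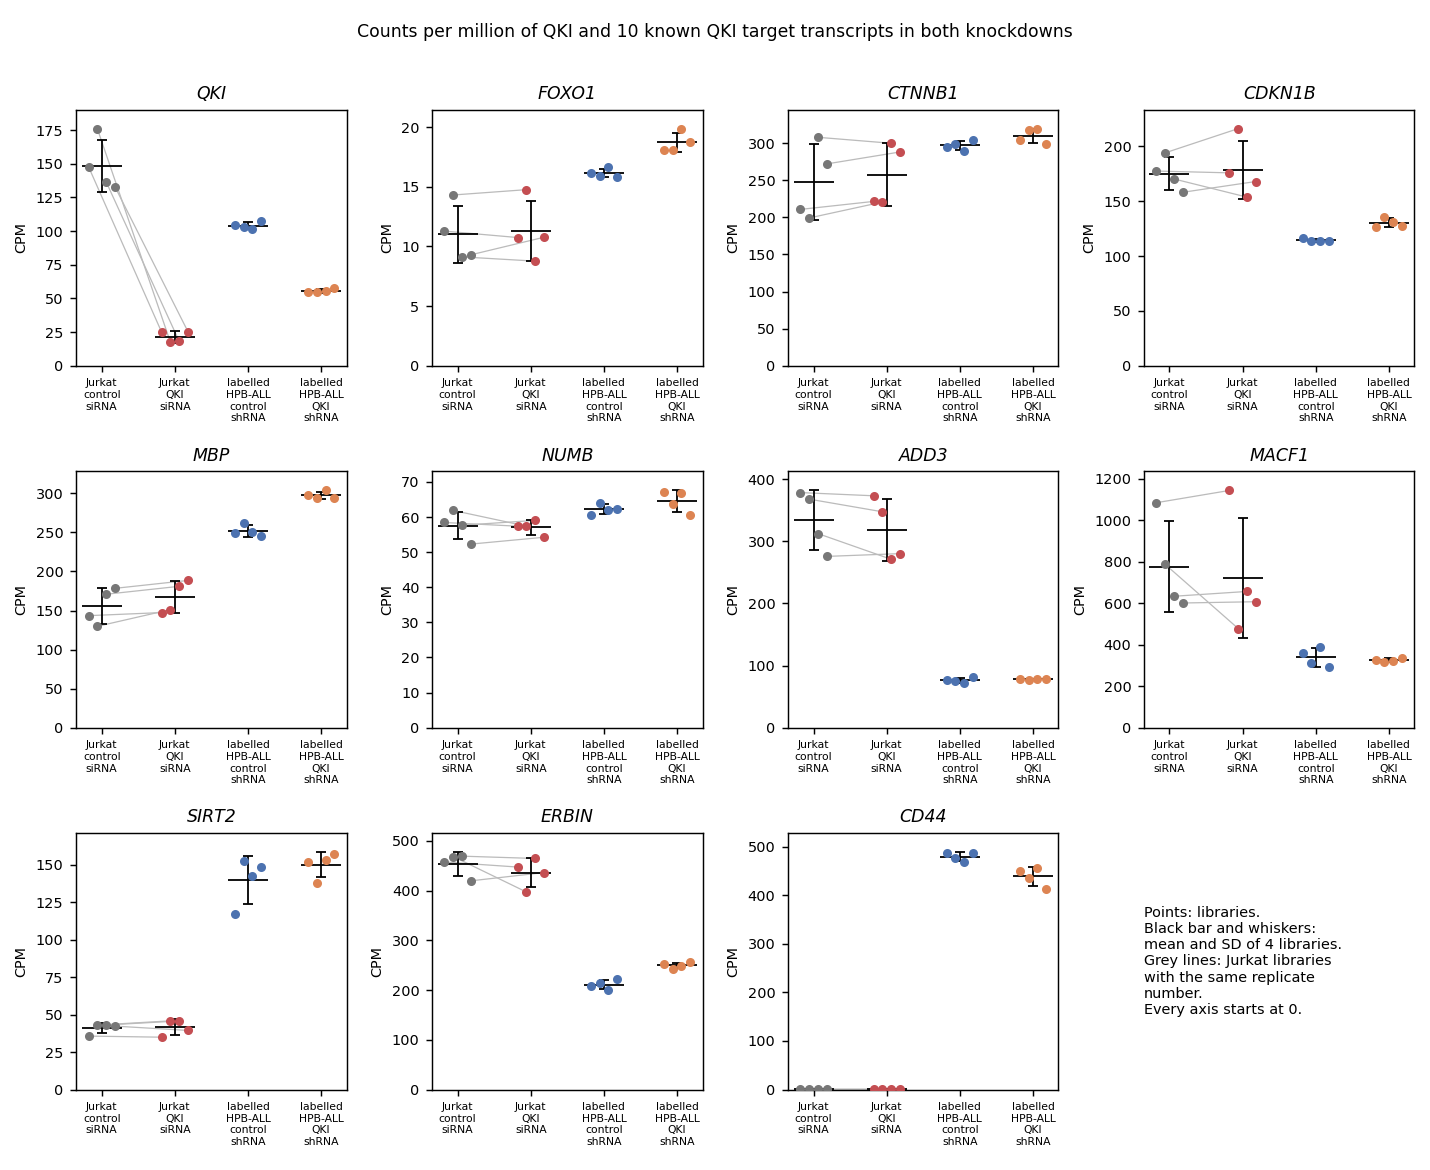
Level of each transcript in counts per 1e6 (CPM), 1 point per library, for the 4 control and 4 QKI knockdown libraries of each experiment. ERBIN, MBP, FOXO1 and CDKN1B lie higher and CD44 lower in every QKI shRNA library labelled HPB-ALL than in every control there, and no transcript separates the Jurkat groups.

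The libraries held 68.4 to 134.2 M gene counts (M, 1e6) in Jurkat, 81.0 to 134.9 M in the knockdown labelled HPB-ALL and 44.1 to 84.0 M in the lines without treatment. The knockdown libraries labelled HPB-ALL did not carry the markers of that line. The summed level of 7 T-cell markers was 0.401 to 0.641 CPM over these 8 libraries, with 0 of 7 above 1 CPM, against 2630 to 3293 CPM in untreated HPB-ALL, with 7 of 7 above 1 CPM. TLX3, a transcription factor gene that read 146 to 289 CPM in untreated HPB-ALL, had 0 counts in all 8. The sum of 6 myeloid markers was 3288 to 3451 CPM in the NTC shRNA and 2858 to 2995 CPM in the QKI shRNA libraries. It was 14.4 to 33.8 CPM in untreated HPB-ALL. Of the 6, 4 averaged above 1 CPM in the NTC shRNA and in the QKI shRNA group, against 1 of 6 in untreated HPB-ALL. ELANE was the highest of them in the knockdown libraries (average log2 CPM 10.7), and MPO (-3.14) and CD14 (-2.92) were nearly absent. The knockdown libraries are therefore called the libraries labelled HPB-ALL. Every value of that knockdown rests on them, and none is tested against the untreated line.

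QKI itself fell in both experiments. In Jurkat it read 148, 176, 137 and 133 CPM in the 4 control libraries and 24.9, 17.5, 18.2 and 25.3 CPM in the siRNA libraries, and its log2 fold change was -2.79 (SE 0.17, adjusted p = 0.000129 by edgeR). In the experiment labelled HPB-ALL it read 101 to 107 CPM in the controls and 54.6 to 57.7 CPM with the shRNA, and the log2 fold change was -0.90 (SE 0.03, adjusted p = 1.1e-07 by edgeR). QKI RNA fell by 85.5% with the siRNA and by 46.4% with the shRNA, and the groups did not overlap in either experiment.

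With the QKI shRNA, 4 of the 10 transcripts rose and 1 fell in the libraries labelled HPB-ALL. The rises were of 13.9% to 18.4%, in MBP, ERBIN, FOXO1 and CDKN1B, and CD44 fell by 8.45%. In that comparison 23.2% of all 17974 genes tested were called by edgeR (adjusted p under 0.05), 12.8% higher and 10.4% lower. The median log2 fold change of the 10 transcripts was 0.08, against -0.01 over all genes tested. The 5 called transcripts were also the 5 whose control and knockdown libraries did not overlap, which held for 26.2% of all genes tested. Of the myeloid markers, 3 of 6 fell in this comparison (log2 fold changes -0.71 for LYZ, -0.47 for AZU1 and -0.17 for CST3) and 0 rose, and their part in the results was not tested. In bulk libraries fewer cells of a type and less RNA per cell cannot be told apart.

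FOXO1, a transcription factor of T-cell maturation and quiescence and the transcript with the most cores, read 16.1, 15.9, 16.7 and 15.9 CPM in the 4 control libraries and 18.1, 18.1, 19.9 and 18.8 CPM with the shRNA. Its log2 fold change was 0.21 (SE 0.04, adjusted p = 0.00522 by edgeR), a rise of 15.9% with a 95% interval of 8.36% to 23.9%. CDKN1B, which codes for the cell-cycle inhibitor p27, read 116, 114, 114 and 113 CPM in the controls and 126, 136, 131 and 127 CPM with the shRNA. It rose by 13.9% (8.08% to 19.9%), with a log2 value of 0.19 (SE 0.03, adjusted p = 0.00259 by edgeR). MBP, named for myelin basic protein and also the source of transcripts outside the nervous system, read 249, 262, 250.4 and 245 CPM in the controls and 298, 295, 304 and 294 CPM with the shRNA. Its log2 fold change was 0.24 (SE 0.04, adjusted p = 0.000653 by edgeR), a rise of 18.2% (12.1% to 24.8%). For all 3 transcripts the lowest knockdown library stood above the highest control.

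CTNNB1 and SIRT2, the other transcripts described as bound in their 3′ untranslated regions, were not called. CTNNB1, the adhesion protein and Wnt-pathway coactivator, read 290 to 304 CPM in the controls and 298 to 319 CPM with the shRNA. The groups overlapped, and its log2 fold change of 0.06 (SE 0.04, adjusted p = 0.278 by edgeR) had a 95% interval of -0.02 to 0.14. SIRT2 read 117, 152, 142 and 148 CPM in the controls and 152, 138, 153 and 157 CPM with the shRNA. Control replicate 1 stood lowest, and the log2 fold change of 0.10 (SE 0.07, adjusted p = 0.356 by edgeR) had an interval of -0.06 to 0.26. SIRT2 overlaps NFKBIB on the opposite strand over 40 exonic bases, and the sources used here do not give the strand setting of the counting.

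Among the transcripts known for exon choice, ERBIN, a scaffold protein that binds the receptor ERBB2, had the largest log2 fold change of the 10. It read 208, 214, 199 and 221 CPM in the controls and 252, 243, 249 and 256 CPM with the shRNA, with every knockdown library above every control. The log2 fold change was 0.24 (SE 0.04, adjusted p = 0.00128 by edgeR), a rise of 18.4% (11.5% to 25.8%), and no core stood in the 3′ untranslated region examined. CD44, the cell-surface receptor for hyaluronan, read 486, 476, 468 and 487 CPM in the controls and 450.2, 435, 457 and 413 CPM with the shRNA. Its log2 fold change was -0.13 (SE 0.04, adjusted p = 0.0433 by edgeR), or -8.45% (-14.0% to -2.55%). The call was near the threshold: the adjusted p was 0.101 with the replicate number as a block and 0.107 with no filter on low counts, and it ran from 0.0696 to 0.113 in the 6 of 8 fits without 1 library in which the call was lost.

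NUMB, ADD3 and MACF1 overlapped between the groups and were not called. NUMB, an adaptor that restrains Notch signalling, read 60.7 to 64.1 CPM in the controls and 60.5 to 67.0 CPM with the shRNA (log2 fold change 0.05, 95% interval -0.04 to 0.14). ADD3, an adducin of the membrane skeleton, read 72.2 to 81.4 CPM and 76.5 to 78.5 CPM (0.03, -0.06 to 0.12). MACF1, a large linker of microtubules and actin, spread most, with 293 to 390 CPM in the controls and 319 to 338 CPM with the shRNA (-0.06, -0.22 to 0.11). For these 3 the intervals ended at changes of -13.9% and 10.1% at the widest.

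**Figure D2:**
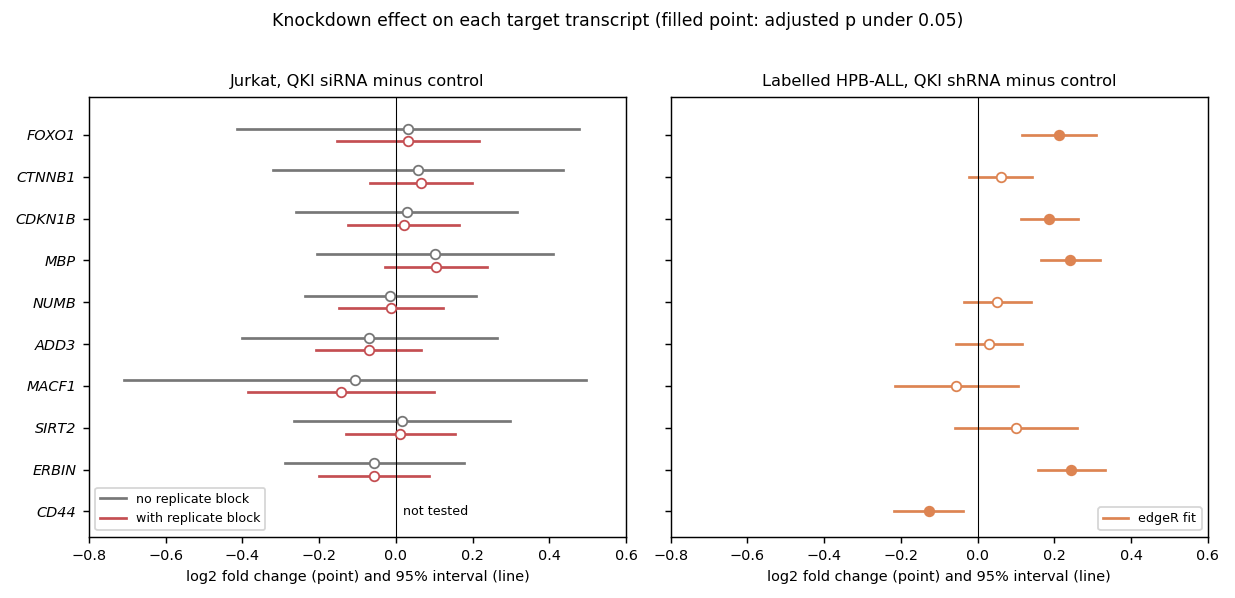
Log2 fold change of each transcript (QKI knockdown minus control) with its 95% interval, in the libraries labelled HPB-ALL and in Jurkat, where the interval with the replicate number as a block is drawn beside the one without. In the libraries labelled HPB-ALL 5 intervals leave 0 out, and in Jurkat every interval includes 0.

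In Jurkat, with the larger loss of QKI RNA, none of the transcripts passed the test. The low-count filter kept 9 of the 10; CD44 had 3 to 21 counts in a library and was left out. Of the 9 transcripts 0 were called by edgeR, 0 had an unadjusted p under 0.05, and 0 had groups that did not overlap (1.07% of all genes tested). In the whole comparison 0.00470% of genes were called, which is QKI alone, and 186 genes had an unadjusted p under 0.05. DESeq2 called 2 genes and 0 of these transcripts. The log2 fold changes of the 9 ran from -0.11 for MACF1 to 0.10 for MBP, with a median of 0.02 against 0.00 for all genes tested. Their SEs ran from 0.10 (NUMB) to 0.27 (MACF1), against 0.03 (CDKN1B) to 0.07 (MACF1) in the libraries labelled HPB-ALL. With this wider spread, the lack of a call in Jurkat does not show a lack of change. Same-numbered Jurkat libraries deviated together, and with the replicate number as a block 0.0423% of genes were called, again with 0 of the 9 transcripts.

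MBP read 143, 129.7, 171 and 178 CPM in control replicates 1 to 4 and 147, 151, 181 and 189 CPM in the siRNA replicates. It was higher in 4 of 4 same-numbered pairs, by 0.04 to 0.22 on the log2 scale. None of the other transcripts moved the same way in all pairs, and the share of all genes that did was not computed. The blocked log2 fold change of MBP was 0.11 (95% interval -0.03 to 0.24, edgeR adjusted p = 0.780). CTNNB1 read 211, 199, 308 and 272 CPM in the controls and 221, 221, 299.7 and 288 CPM with the siRNA, a blocked log2 fold change of 0.07 (-0.07 to 0.20). FOXO1 read 11.3, 14.3, 9.13 and 9.30 CPM in the controls and 10.7, 14.8, 8.77 and 10.8 CPM with the siRNA, a blocked value of 0.03 (-0.15 to 0.22). For CTNNB1 and FOXO1 the spread over replicate numbers was wider than the step within any pair. CDKN1B read 177, 194, 170.2 and 158 CPM in the controls and 176, 216, 154 and 168 CPM with the siRNA, a blocked value of 0.02 (-0.12 to 0.17). For SIRT2 the controls read 35.6 to 43.0 CPM and the siRNA libraries 34.9 to 45.8 CPM, with a blocked value of 0.01 (-0.13 to 0.16).

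ERBIN read 457, 468, 469 and 419.6 CPM in the Jurkat controls and 447, 397, 465 and 436 CPM with the siRNA, a blocked log2 fold change of -0.06 (-0.20 to 0.09). ADD3 read 379, 368, 313 and 276 CPM and 373, 348, 271 and 280.3 CPM, a blocked value of -0.07 (-0.21 to 0.07). NUMB stayed within 52.3 to 61.9 CPM in all 8 libraries, with a blocked value of -0.01 (-0.15 to 0.12). MACF1 was the most variable, with 1085, 788, 634 and 601 CPM in the controls and 1144, 478, 657 and 608 CPM with the siRNA. Its pair 2 differed by -0.72 on the log2 scale and the other 3 pairs by 0.01 to 0.08. Its interval was -0.71 to 0.50 without and -0.39 to 0.10 with the block.

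Some of the Jurkat values also separated by replicate number. Over both arms together, replicates 3 and 4 stood above replicates 1 and 2 without overlap for CTNNB1 (272 to 308 against 199 to 221 CPM) and MBP (171 to 189 against 129.7 to 151 CPM). They stood below for CDKN1B (154 to 170.2 against 176 to 216 CPM) and ADD3 (271 to 313 against 348 to 379 CPM). Such a separation was found for 4 of the 9 transcripts tested, and FOXO1, NUMB, MACF1, SIRT2 and ERBIN overlapped. It was found for 35.3% of all genes tested, so it sets these transcripts apart in no way. What the numbers stand for is not given in the labels.

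The test of the difference between the knockdown effects called 0 of the 9 transcripts measured in both experiments, against 0.0254% of all 15730 genes. The experiments differ in cells, reagent, delivery, serum and type of RNA, which the test cannot separate. ERBIN differed most: its log2 fold change was higher by 0.29 in the libraries labelled HPB-ALL than in Jurkat (SE 0.09, 95% interval 0.09 to 0.48). Its edgeR adjusted p was 0.514, and 0.0727 with the replicate number as a block. It was the 1 transcript of the 9 with an unadjusted p under 0.05, as were 971 genes in all. For FOXO1, CDKN1B and MBP the differences were 0.17 (-0.32 to 0.65), 0.14 (-0.16 to 0.44) and 0.12 (-0.15 to 0.39). A call in the libraries labelled HPB-ALL and none in Jurkat was thus not shown to be a difference between the experiments.

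Over the untreated lines the amount of QKI spanned from 0 counts to 162 CPM. LOUCY had 0 QKI counts in all 4 libraries, which allows up to 3 counts or 0.0614 CPM in any of them (counting error only), and KARPAS-45 held 6.71 ± 0.776 CPM (mean ± SD, n = 4). DND-41 held 88.0 ± 5.54, ALL-SIL 129.6 ± 11.5, HPB-ALL 137 ± 19.7 and TALL-1 162 ± 4.24 CPM. The neighbours TALL-1 and HPB-ALL (edgeR adjusted p = 0.0632) and HPB-ALL and ALL-SIL (0.531) were not told apart, and the other neighbours were. All 10 transcripts differed over the 6 lines in edgeR's F test, as did 98.0% of all genes tested, so the calls set no transcript apart. Of the 150 contrasts of a transcript between a pair of lines 111 were called, against 65.2% of the contrasts over all genes (51.9% to 76.2% in a single pair).

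**Figure D3:**
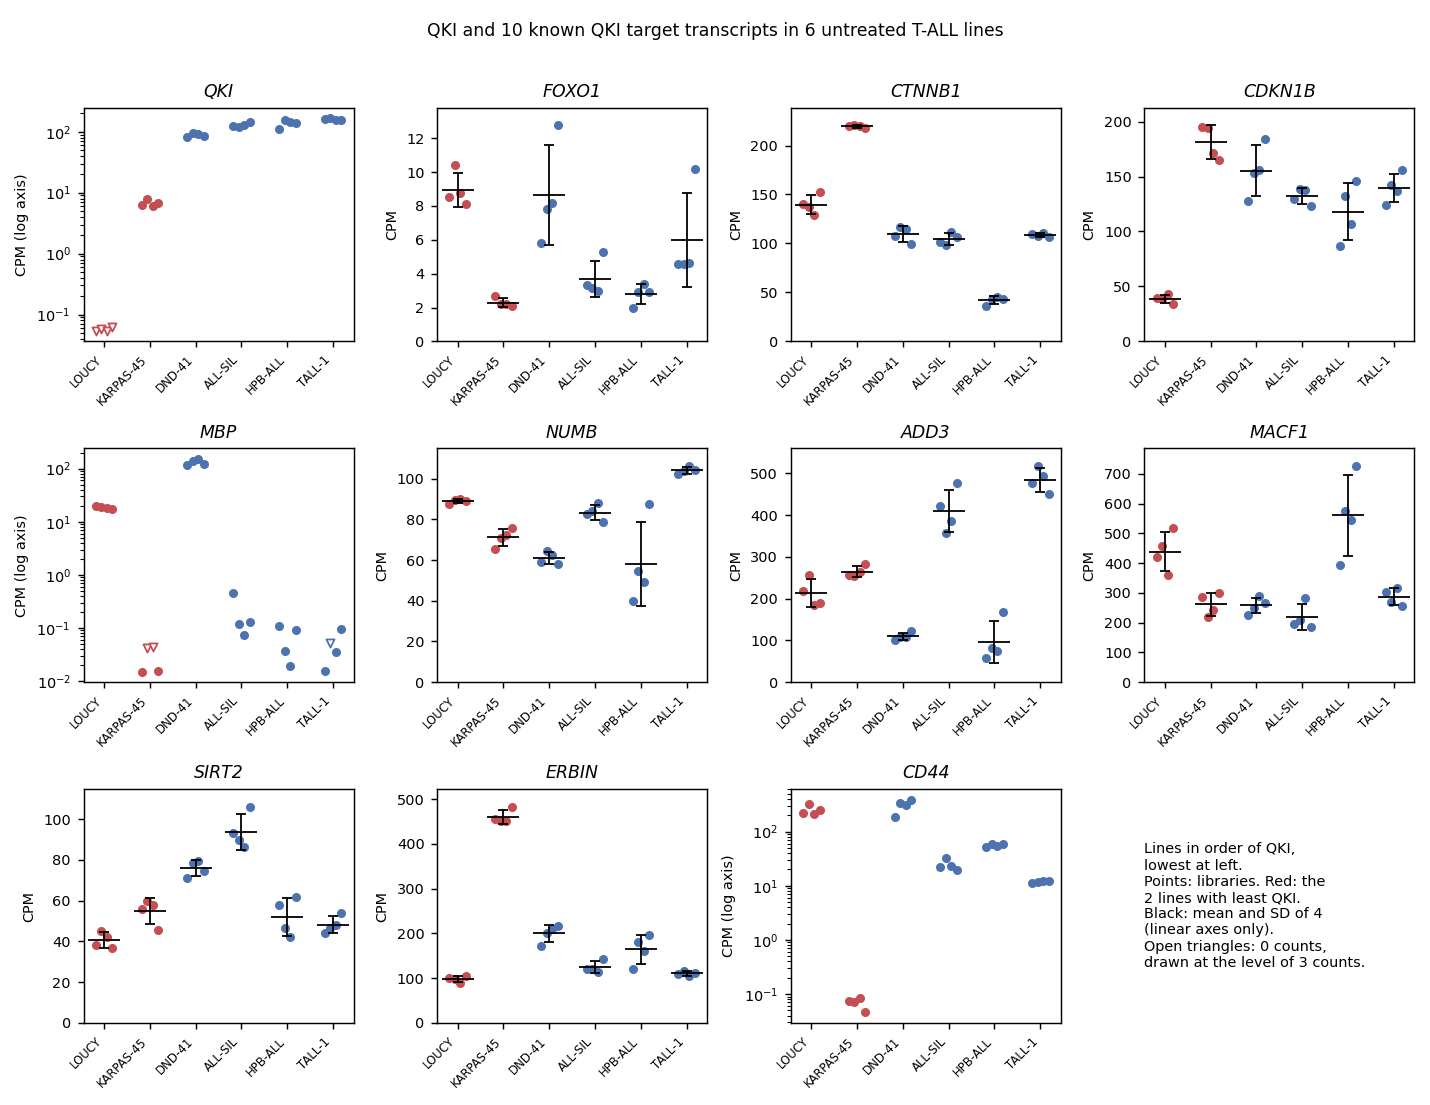
Level of each transcript in the 24 untreated libraries (CPM), 1 point per library. The lines are ordered from the lowest to the highest mean QKI. CTNNB1 is the 1 transcript for which all libraries of LOUCY and KARPAS-45 lie above all others, and FOXO1, CDKN1B and ERBIN have these lines at opposite ends.

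CTNNB1 was the 1 transcript whose 8 libraries of LOUCY and KARPAS-45, the lines with the least QKI, all lay above the 16 others, a pattern of 4.01% of all genes tested. It read 217.5 to 220.6 CPM in KARPAS-45, 128.6 to 153 in LOUCY, 98.97 to 117 in DND-41, 106 to 111 in TALL-1, 98.4 to 111 in ALL-SIL and 36.1 to 45.5 in HPB-ALL. The means were 219.6 ± 1.40, 139.8 ± 9.93, 109.5 ± 7.97, 109 ± 2.12, 104 ± 5.78 and 41.9 ± 4.07 CPM (SD, n = 4 each). DND-41 and TALL-1, and TALL-1 and ALL-SIL, did not differ by edgeR (adjusted p = 0.959 and 0.611), and the other neighbours in this order did. KARPAS-45 stood 5.24-fold above HPB-ALL. None of the 10 transcripts had all 8 libraries of LOUCY and KARPAS-45 below the others, a pattern of 3.76% of all genes.

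For 3 transcripts the lines with little QKI stood at opposite ends of the order. These lines also differed in serum (LOUCY 10%, KARPAS-45 20%), which cannot be told apart from the line. FOXO1 was highest in LOUCY (8.95 ± 1.004 CPM) and DND-41 (8.65 ± 2.95), followed by TALL-1 (5.99 ± 2.79), ALL-SIL (3.69 ± 1.06), HPB-ALL (2.80 ± 0.611) and KARPAS-45 (2.29 ± 0.277). Only TALL-1 and ALL-SIL differed among these neighbours (edgeR adjusted p = 0.0271), and replicate 4 of TALL-1, at 10.2 CPM, stood far above the other 3 (4.56 to 4.62). CDKN1B was highest in KARPAS-45 (181 ± 15.5 CPM) and lowest in LOUCY (38.9 ± 3.54), with DND-41 (155 ± 23.1), TALL-1 (139.7 ± 13.0), ALL-SIL (132 ± 7.59) and HPB-ALL (118 ± 26.3) between. LOUCY was the 1 line that differed from its neighbour, and its log2 level was 2.22 below that of KARPAS-45 (SE 0.14, adjusted p = 3.75e-13 by edgeR). ERBIN had the same ends, with 461 ± 15.3 CPM in KARPAS-45 and 98.3 ± 7.15 in LOUCY, a ratio of 4.69. DND-41 (200.4 ± 19.6), HPB-ALL (164 ± 33.1), ALL-SIL (125.1 ± 12.5) and TALL-1 (111 ± 4.69) lay between, and the steps from ALL-SIL to TALL-1 and from TALL-1 to LOUCY were not called.

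MBP and CD44 were present or nearly absent by line. MBP read 119 to 151 CPM in DND-41 and 17.5 to 20.2 CPM in LOUCY, which differed (log2 difference 2.83, SE 0.24, edgeR adjusted p = 2.15e-10). In the other 4 lines no library passed 0.463 CPM, and KARPAS-45 had 1, 0, 0 and 1 counts. No fold is given against these lines. CD44 read 303 ± 82.6 CPM in DND-41 and 254 ± 52.2 in LOUCY, which did not differ (edgeR adjusted p = 0.197). HPB-ALL held 56.4 ± 3.10, ALL-SIL 24.4 ± 5.84 and TALL-1 11.9 ± 0.346 CPM, each different from its neighbour. In KARPAS-45 it had 3 to 6 counts in a library (0.0699 ± 0.0171 CPM).

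In the other 4 transcripts LOUCY and KARPAS-45 neither stood above nor below all other lines together, nor at opposite ends. ADD3 was highest in TALL-1 (485 ± 28.4 CPM) and ALL-SIL (411 ± 50.8), then KARPAS-45 (264 ± 13.5), LOUCY (213 ± 33.8), DND-41 (109.9 ± 8.59) and HPB-ALL (95.7 ± 49.6). The steps from ALL-SIL to KARPAS-45 and from LOUCY to DND-41 passed the test (edgeR adjusted p = 0.00707 and 0.000243), while KARPAS-45 and LOUCY, next to each other in the middle, were not told apart (0.164). HPB-ALL read 58.3, 81.9, 74.1 and 169 CPM, with replicate 4 far above the rest. MACF1 was highest in HPB-ALL (561 ± 136 CPM) and LOUCY (439 ± 65.6), and the 4 other lines ran from 287 ± 28.3 in TALL-1 to 218 ± 44.0 in ALL-SIL. The step from LOUCY to TALL-1 was the 1 called between neighbours (edgeR adjusted p = 0.00191).

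SIRT2 ran from 93.7 ± 8.70 CPM in ALL-SIL and 75.9 ± 3.76 in DND-41 to 40.6 ± 3.81 in LOUCY, and the steps from KARPAS-45 to HPB-ALL, from HPB-ALL to TALL-1 and from TALL-1 to LOUCY were not called. KARPAS-45 differed from DND-41 above it (edgeR adjusted p = 0.000909) and from LOUCY (log2 level of LOUCY -0.43 relative to KARPAS-45, edgeR adjusted p = 0.00205). NFKBIB, which shares 40 exonic bases with it, had counts equal to 58.1% of those of SIRT2 in these libraries. NUMB varied least between its highest and lowest line, from 104 ± 1.74 CPM in TALL-1 to 58.0 ± 20.7 in HPB-ALL, a ratio of 1.80. In HPB-ALL NUMB read 40.1, 54.8, 49.2 and 87.7 CPM, so replicate 4 raised that mean. No neighbours in the order of NUMB differed, while TALL-1 and HPB-ALL did (log2 difference 0.84, SE 0.14, edgeR adjusted p = 1.54e-05).

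**Figure D4:**
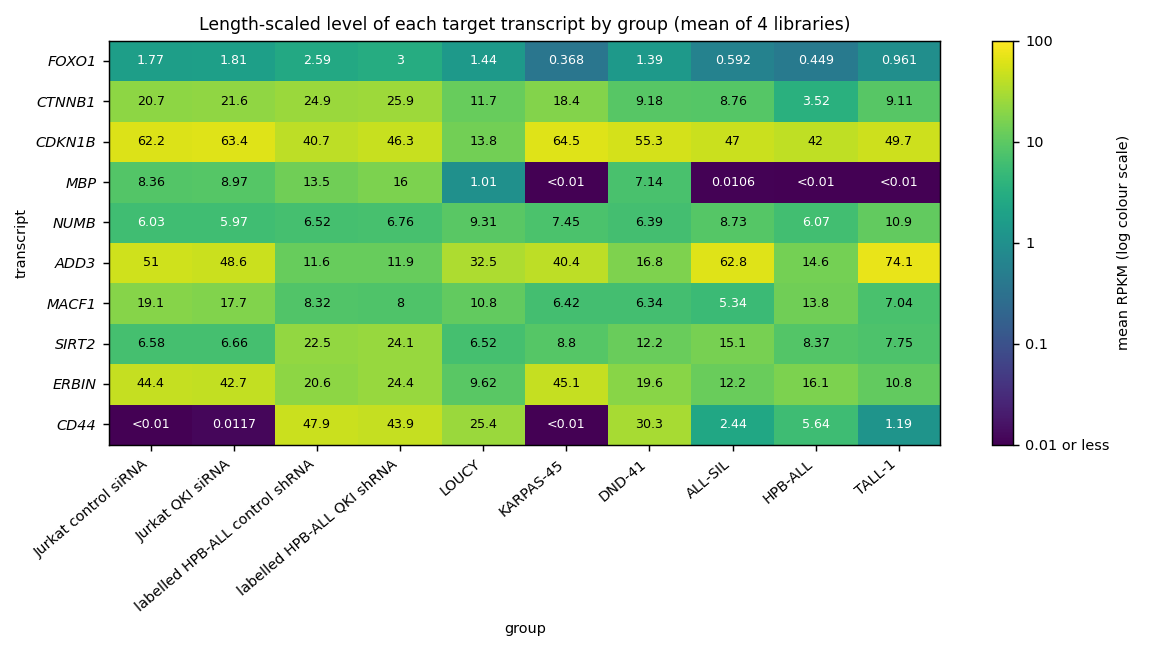
Mean level per length (RPKM, reads per 1e3 exonic bases and 1e6 counts, log scale) of each transcript in the 10 groups. CDKN1B or ADD3 stands near the top in most groups, FOXO1 stays below 3.01 in all, and MBP and CD44 are near 0 in some groups; CD44 is the highest in the NTC shRNA libraries labelled HPB-ALL.

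Levels of different transcripts were compared per length of their exons in GENCODE 29 (RPKM), which is approximate because the annotation release of the counts is not given. CDKN1B, with 13.8 to 64.5 RPKM over the 10 groups, and ADD3, with 11.6 to 74.1, held the first place among the 10 in 9 groups. FOXO1 was among the 3 least abundant in every group, from 0.368 RPKM in KARPAS-45 to 3.003 RPKM with the QKI shRNA. In the NTC shRNA libraries labelled HPB-ALL the highest was CD44, at 47.9 RPKM, and in the Jurkat controls CDKN1B, at 62.2 RPKM. CTNNB1 read 24.9 RPKM in the former and 20.7 RPKM in the latter, and MBP 13.5 and 8.36 RPKM. These levels come from separate normalizations of the 3 tables, and Jurkat RNA is total RNA while the rest is polyadenylated. A difference in level between Jurkat and another group cannot be told apart from the type of RNA.

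Related genes were counted in the same fits, by lists drawn up from general knowledge. Their counts in the libraries labelled HPB-ALL stand beside the 23.2% of all genes called there, 12.8% higher and 10.4% lower. Whether a list differs from all genes was not tested. Of 16 further transcripts tied to QKI in other tissues 8 were tested in the libraries labelled HPB-ALL, where 4 fell and 0 rose (median log2 fold change -0.07). Among the falls was PPARGC1A, a metabolic coactivator, from 91.3 ± 1.73 to 79.9 ± 3.98 CPM (log2 fold change -0.19, edgeR adjusted p = 0.00522). Of 19 relatives of the 10 transcripts in the same gene families 18 were tested, 4 rose and 0 fell (median 0.07). Only the share called in both directions together was near that of all genes (23.2%). FOXO6, a relative of FOXO1, went from 7.69 ± 0.442 to 9.76 ± 0.218 CPM (0.35, edgeR adjusted p = 0.000869), and CDKN1A, which codes for the inhibitor p21, from 12.1 ± 0.418 to 13.8 ± 0.578 CPM (0.19, edgeR adjusted p = 0.0119).

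Among 8 genes linked to FOXO1 in T cells, 6 were tested in the libraries labelled HPB-ALL, 2 fell and 0 rose (median -0.13), where 10.4% of all genes tested fell. PIK3IP1, an inhibitor of PI3 kinase, went from 34.9 ± 2.23 to 30.3 ± 0.689 CPM (log2 fold change -0.21, edgeR adjusted p = 0.00939). FOXO1 itself had risen in the same libraries, which lack T-cell markers. Of 10 partners and targets of beta-catenin 8 were tested, 1 rose and 2 fell (median -0.14), beside 12.8% and 10.4% of all genes. APC, part of the complex that marks beta-catenin for destruction, changed by 0.19 (edgeR adjusted p = 0.00414), its kinase GSK3B by -0.13 (0.0162) and the target CCND1, at 1.503 ± 0.0402 CPM in the controls, by -0.35 (0.0232). In Jurkat 9, 18, 8 and 10 genes of these 4 lists were tested and 0 were called in each, with and without the block.

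The genes whose level over the 24 untreated libraries was most like that of each transcript (Pearson r of log2 CPM, among 12610 genes) are given as a description, since the libraries come from 6 lines and share them. They were OXCT1 and FTO for CTNNB1 (r = 0.981 for both), TULP4 (0.978) and MAGEE1 (0.968) for CDKN1B, and MAP3K5 (0.984) and PIEZO2 (0.980) for ERBIN. MBP went with TMEM273 (0.987) and NPL (0.973), and CD44 with TENT5C and TCEAL1 (0.978 for both). For ADD3 they were LMNA (0.945) and USP48 (0.933), for SIRT2 CCDC159 (0.942) and WDR86 (0.917), for MACF1 SRCAP (0.928) and SIK3 (0.906), for FOXO1 PNMA2 (0.907) and MMRN1 (0.902), and for NUMB DCAF11 (0.891) and RPS6KA5 (0.872).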

How the data were processed

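The authors deposited 3 tables of raw counts, whole numbers of reads for each gene. The submitters' processing notes name Trimmomatic 0.39, STAR 2.7.11b and GRCh38. The sources used here do not give the counting tool, the strand setting or the annotation release. Per the labels, Jurkat RNA is total RNA and the rest polyadenylated, and HPB-ALL and KARPAS-45 grew in 20% serum and the others in 10%. Entries of the table labelled HPB-ALL that name no gene (13.0% to 15.1% of its reads) were left out. The 10 transcripts and the gene lists were chosen with earlier results of these data known.

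Groups follow the labels; in LOUCY, 2 columns with no distinct replicate number were kept unnumbered. Replicates differed by more than counting noise in all 60 pairs (chi-square of 12.7 to 348 per degree of freedom). Tests on the deposited counts used edgeR 4.0.16, run in R 4.3.3 (filterByExpr, TMM, quasi-likelihood F test, Benjamini-Hochberg adjustment over all genes, threshold 0.05), on 8 libraries for each knockdown, 16 for the difference of the effects and 24 for the lines, with the scripts first tested on simulated counts. CPM use TMM factors; the SE of a log2 fold change was obtained by dividing it by the square root of its F value. The depth of each library is the sum of its gene counts.

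Replicate numbers are shared by the groups. In Jurkat the deviations of same-numbered libraries correlated at 0.337 to 0.556 in 4 of 4 pairs. For 7 of 8 libraries the best match in the other arm carried the same number, so the numbers were taken as pairs. Values with the number as a block are given beside the Jurkat results. Alternatives were DESeq2 1.42.0 and limma-voom (limma 3.58.1), RLE size factors, no filter on low counts, the block, leaving out histone and mitochondrial genes, replicates 1 and 2 or 3 and 4 only, and leaving out each library. DESeq2 with the block was added after seeing the data. The text names QKI, the 10 transcripts, up to 2 called genes per list and direction with the smallest p, and the 2 genes most alike over the lines; markers named beside a result are exceptions, and some genes picked by it are not reported here. Motifs were searched on the transcript strand of 1 principal transcript per gene in GENCODE 29.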

Additional observations from a re-analysis of the deposited data

Results flagged for a closer look

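Of 109 groups of 4 libraries examined for these transcripts and QKI, 7 held a library that stood far from the other 3 by Dixon's criterion, which chance gives in about 1 group in 20. Replicate 4 of a line was the distant one in 4 of them: FOXO1 at 10.2 CPM in TALL-1 (others 4.56 to 4.62), FOXO1 at 5.27 CPM in ALL-SIL (others 2.99 to 3.35), ERBIN at 483 CPM in KARPAS-45 (others 451 to 456) and CTNNB1 at 217.5 CPM in KARPAS-45 (others 220.1 to 220.6). MBP read 0.463 CPM in ALL-SIL replicate 1, on 25 counts (others 0.0730 to 0.131). In the Jurkat controls, SIRT2 read 35.6 CPM in replicate 1 (others 42.3 to 43.0) and CD44 0.183 CPM in replicate 4, on 19 counts (others 0.0605 to 0.0726).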

How the results depend on the processing

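The counts of transcripts called were 0 in Jurkat and 0 for the difference in every alternative that was run, 10 over the lines, and 4 or 5 in the libraries labelled HPB-ALL; CD44 was the one lost. All genes called in Jurkat numbered 1, and 2 with DESeq2, 9 with the replicate block, 5 with replicates 3 and 4 only and 37 with the replicate block in DESeq2. For the difference 4 genes were called, and 102 with DESeq2, 481 with the replicate block and 3 to 10 without 1 library. The cause of these shifts was not tested. Some uncalled log2 fold changes near 0 changed sign. In Jurkat FOXO1 was -0.0078 with replicates 1 and 2 only, and with replicates 3 and 4 only CDKN1B was -0.033, NUMB 0.038, MACF1 0.029, SIRT2 -0.0087 and ERBIN 0.015. The difference for CTNNB1 was 0.031 with no filter and 0.0042 without histone and mitochondrial genes.

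Without 1 library the Jurkat values ran from -0.12 to 0.19 for FOXO1, -0.03 to 0.18 for CTNNB1, -0.077 to 0.091 for CDKN1B, -0.057 to 0.024 for NUMB, -0.42 to 0.10 for MACF1 and -0.046 to 0.090 for SIRT2. MACF1 ran from -0.12 to 0.019 in the libraries labelled HPB-ALL. The difference ran from -0.13 to 0.073 for CTNNB1, -0.17 to 0.36 for MACF1, -0.0012 to 0.35 for FOXO1 and -0.0026 to 0.15 for SIRT2. In the libraries labelled HPB-ALL same-numbered libraries did not deviate together (correlations -0.179 to 0.045); the replicate block called 3063 genes there against 4175 without it. Between lines, libraries with the same number correlated at -0.124 to 0.388, and the replicate block called 110 member contrasts between lines against 111. The counts of contrasts were not computed with DESeq2 or limma-voom. CD44 has no test in Jurkat, where it had 3 to 21 counts in a library and did not pass the filter.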
